A study of Mus musculus with 16 samples.

Results

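The imprinted genes Dlk1 and Meg3 on chromosome 12 and Impact on chromosome 18 were followed in mouse fibroblast lines, some of which had lost a copy of these chromosomes. Members were those CpGs, each read at least 10 times in every one of the 16 libraries, that lay between 20 kb before the annotated start of a gene and its end. There were 198 members of 1334763 CpGs with this coverage, namely 24 at Dlk1, 80 at Meg3 and 94 at Impact. With 5 reads these numbers would have been 90, 158 and 141, and with 20 reads 7, 19 and 23.

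DNA methylation was measured by target capture bisulfite sequencing, in which RNA probes pull out chosen regions before bisulfite turns unmethylated cytosines into uracil. The cells were embryonic fibroblasts from C57BL/6J embryos at E13.5, immortalised by passaging through crisis, from a brother and a sister embryo (MEF-1 male, MEF-2 female). Each family consisted of 1 parental library, which was a mixed culture without replicates, and 7 clonal lines, each grown from 1 sorted cell of that culture. No line carried a transgene or a treatment, and clonal lines of a family share 1 embryo and 1 culture, so p-values over lines measure the spread between lines of that culture.

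In an imprinted gene the copies from mother and father differ in DNA methylation and usually only one of them is transcribed. A region with such a parental imprint has a level near the middle when both copies are present, because methylated and unmethylated copies are read together. Dlk1, a transmembrane protein of the Notch ligand kind that restrains adipocyte formation, is transcribed from the paternal copy, and the noncoding RNA Meg3 of the same domain from the maternal copy, the Meg3 promoter being methylated on the paternal one. Impact, which restrains the stress kinase GCN2, is transcribed from the paternal copy and has a CpG island that is methylated on the maternal one.

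Coverage gave the copy number, relative to the median autosome and to the median MEF-2 clonal line. On chromosome 12 it was 0.524 to 0.546 in all 7 MEF-1 clonal lines, 0.686 in the MEF-1 parental library and 0.992 to 1.01 in MEF-2 clonal lines. On chromosome 18 it was 0.514, 0.519 and 0.529 in MEF-1 lines 1, 4 and 5, 0.912 to 1.00 in MEF-1 lines 2, 3, 6 and 7, and 0.717 in the MEF-1 parental library. A clonal line near 0.5 is called a 1-copy line below and one near 1 a 2-copy line, although only the ratio to the other autosomes was measured. Impact was annotated at chr18:12955852-12992950, where transcript Impact-206 gives the gene start and the protein-coding transcript Impact-201 begins further inside, at position 12971923.

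Depth was 59243669 to 90633091 calls per library, a call being 1 read over 1 CpG. Members had a median of 21, 22 and 29 reads at Dlk1, Meg3 and Impact in MEF-1 clonal lines, against 49.5, 42 and 41 in MEF-2 clonal lines.

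Dlk1 lies on the plus strand of mm10 at chr12:109452823-109463336 and Meg3 at chr12:109541001-109571726. Every one of the 198 members lay at a CG of the GRCm38 reference. The stretches of chromosome 12 below were chosen as examples after their values were seen, and in each the CGs in capitals are the members. Sequences are from the RefSeq assembly GRCm38.p6, plus strand, 5′ to 3′, and the first is the RefSeq promoter of Meg3 with 13 CGs, of which 9 are members. The second lies between genes ahead of Dlk1, the third in the first intron of Meg3, and the last in a Meg3 exon that holds some of the few Meg3 members lower in MEF-1.
Meg3 promoter, chr12:109540746-109541045: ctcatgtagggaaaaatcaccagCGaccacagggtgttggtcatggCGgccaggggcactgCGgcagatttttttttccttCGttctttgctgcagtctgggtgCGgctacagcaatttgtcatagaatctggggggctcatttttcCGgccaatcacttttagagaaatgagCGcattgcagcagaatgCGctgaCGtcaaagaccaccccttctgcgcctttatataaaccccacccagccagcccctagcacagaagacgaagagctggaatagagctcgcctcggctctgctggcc
Dlk1 upstream stretch, chr12:109438069-109438329: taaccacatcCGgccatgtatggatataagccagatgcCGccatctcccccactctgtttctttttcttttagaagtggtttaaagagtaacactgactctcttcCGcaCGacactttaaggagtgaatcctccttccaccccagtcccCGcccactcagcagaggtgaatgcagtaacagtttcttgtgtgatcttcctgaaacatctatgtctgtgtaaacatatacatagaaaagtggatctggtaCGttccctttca
Meg3 first intron, chr12:109541287-109541366: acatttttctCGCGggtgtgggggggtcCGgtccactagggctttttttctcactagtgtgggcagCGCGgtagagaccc
Meg3 exon, chr12:109546358-109546469: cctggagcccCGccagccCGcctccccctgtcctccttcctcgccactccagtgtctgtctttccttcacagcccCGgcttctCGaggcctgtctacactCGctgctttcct

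The hexamer TGCCGC, known as the recognition word of the imprint-keeping protein ZFP57, was searched on both strands of RefSeq promoters of 300 bases. It occurred 1 time in the Meg3 promoter shown above, 0 times in the other RefSeq promoter of Meg3, 0 times in the Dlk1 promoter, and in 11.6% of all 32851 promoters. A match of letters is a description and not a binding site. The promoter of Impact was not used. Only promoters were searched, and the Dlk1 upstream stretch printed above, which was not among them, also holds this hexamer.

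To compare imprints, half-methylated tiles were taken, which are windows of 500 bases counted from the gene start, with at least 5 members and 30 to 70% of pooled reads methylated in the MEF-2 parental library. This choice favours intermediate levels in MEF-2 lines. The main differences between groups in the tiles of Dlk1, Meg3 and Impact are therefore also given over all members, which need no such choice. That library is also the baseline of the MEF-2 lines in the shift from the parental library, and the shift is therefore tested over all members and only described in the tiles. Dlk1 had 1 such tile with 11 members, Meg3 had 2 with 20 members, and Impact had 3 with 40 members. The level of a tile is the mean of the percentage of methylated reads over its CpGs, and a CpG at 10% or below or at 90% or above in a line is called extreme. Tests on tiles were two-sided exact permutation tests over lines, with p-values adjusted over these 15 tests. Exact p-values over all members and under alternatives were not adjusted.

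**Figure D1:**
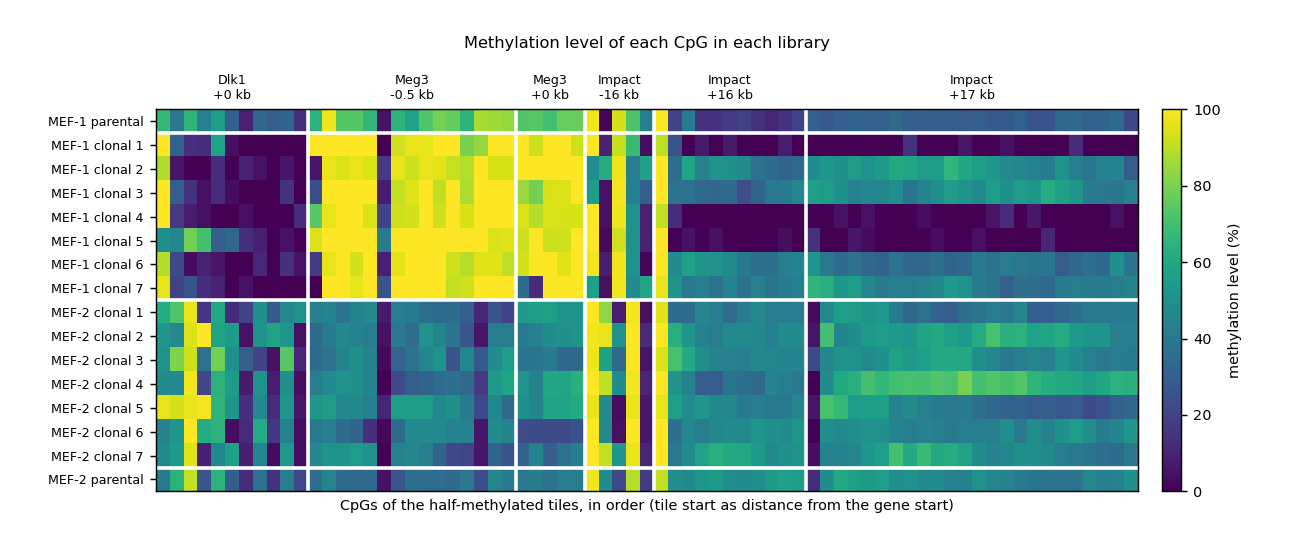
Methylation level (colour, 0 to 100%) of each CpG of the half-methylated tiles (columns, in order, with the tile start in kb from the gene start) in each of the 16 libraries (rows). MEF-1 clonal lines were mostly low at Dlk1 and mostly high at Meg3, and at the tiles of Impact 16 and 17 kb into the gene lines 1, 4 and 5 were mostly near 0, as was 1 CpG of the latter tile in most MEF-2 lines.

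Of the 3 loci, Meg3 had the largest difference between families. Both tiles lay around its start, with 15 members in the 500 bases before it and 5 in the 500 bases after it, within the first intron. The MEF-1 clonal lines 1 to 7 had mean levels of 91.8, 87.7, 87.4, 91.2, 95.2, 88.2 and 82.7%, and the MEF-2 clonal lines 1 to 7 had 38.6, 38.9, 38.5, 41.8, 46.7, 32.4 and 35.8%. The families did not overlap. The means were 89.2% ± 3.98 (SD, n = 7) and 39.0% ± 4.50 (SD, n = 7), a difference of 50.2 percentage points (exact permutation test, p = 0.000583, the smallest that 7 against 7 lines allow, adjusted p = 0.00146). Over all 80 members, without the choice of tiles, the difference was 18.2 points (83.9 against 65.7%, exact permutation p = 0.000583).

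Extreme calls at the Meg3 tiles made up 80 to 95% of CpGs in lines of MEF-1 and 0 to 10% in those of MEF-2, with means of 87.9% ± 4.88 and 6.43% ± 3.78 (SD). The difference of 81.4 points passed the exact permutation test (p = 0.000583, adjusted p = 0.00146), and over all 80 members it was 43.0 points (exact permutation p = 0.000583). MEF-1 lines had fewer reads here, and with each CpG thinned to 10 reads the difference was 77.9 points. In the promoter tile 88 of the 105 values in MEF-1 lines were at 90% or above, against 0 of 105 in MEF-2 lines. Of the 15 CpGs of that tile, 11 were at 90% or above in every MEF-1 line.

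The MEF-1 parental library lay between the families at Meg3, with 69.7% of 610 pooled reads methylated (95% Wilson interval 65.9 to 73.2%, counting error only). In the MEF-2 parental library 34.7% of 944 reads were methylated (31.8 to 37.8%). As means over CpGs, the measure used for lines, the parental libraries were at 71.1% (MEF-1) and 35.7% (MEF-2). By that measure MEF-1 clonal lines were 18.1 points above their parental library on average and MEF-2 clonal lines 3.27 points above theirs. The shifts in the tiles thus differed by 14.8 points, with all 7 MEF-1 lines higher than their parental library. Over all 80 members they differed by 4.62 points (exact permutation test, p = 0.0122).

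Single CpGs of the Meg3 promoter had the higher mean over lines in MEF-1, though not in every line. The member closest to the start, 59 bases before it, had a lowest, median and highest level of 90.5, 100 and 100% in MEF-1 lines and of 20, 41.9 and 58.3% in MEF-2 lines (adjusted p = 4.70e-05, quasi-binomial model over all CpGs). The member 82 bases before the start was at 84.2, 100 and 100% in MEF-1 and at 5.88, 10.8 and 27.6% in MEF-2 lines (adjusted p = 6.04e-06, quasi-binomial model). In MEF-2 it was thus lower than its neighbours in the promoter sequence above. Chosen after its values were seen, the member 428 bases before the start was at 100, 5.88, 23.8, 74.1, 94.7, 17.4 and 0% in MEF-1 lines 1 to 7, which covers the whole scale, and at 34.4 to 52.8% in MEF-2 lines. The member 278 bases before the start, chosen in the same way, was low in both families, at 0, 16.7 and 41.7% in MEF-1 and 0, 2.17 and 10.2% in MEF-2 lines.

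**Figure D2:**
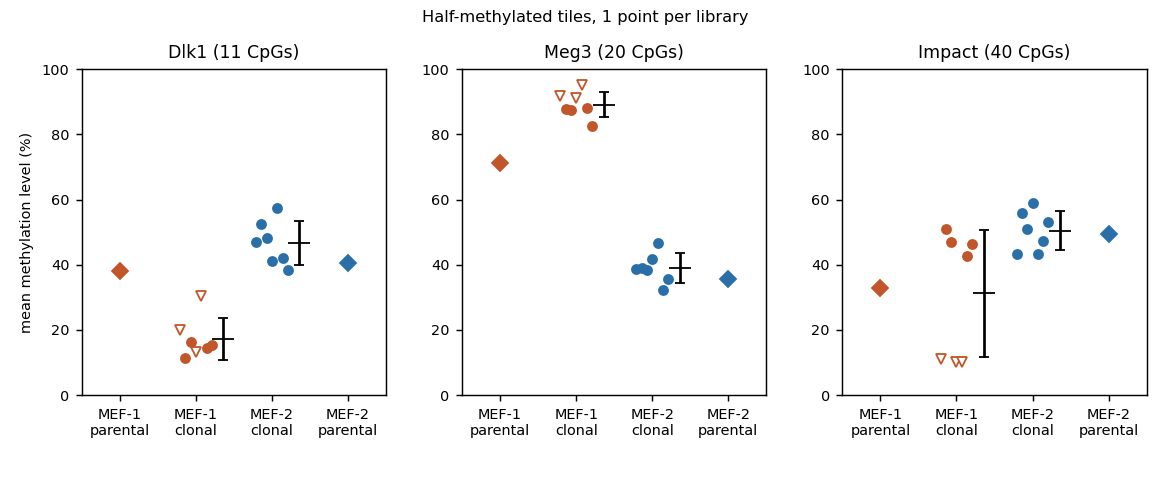
Mean methylation level (%) over the CpGs of the half-methylated tiles of each locus, with 1 point per library, horizontal ticks at the mean of 7 clonal lines and bars of 1 SD; diamonds are parental libraries and open triangles are MEF-1 lines 1, 4 and 5. MEF-1 clonal lines lay below MEF-2 lines at Dlk1 (11.5 to 30.5% against 38.5 to 57.5%) and above them at Meg3 (82.7 to 95.2% against 32.4 to 46.7%), and at Impact lines 1, 4 and 5 stood apart at 10.2 to 11.1%.

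The remaining Meg3 members were not all shifted the same way. Tiles that did not pass the rule for half-methylated ones lay on both sides, and 4 members in the 500 bases ahead of the promoter tile had means of 94.0 to 100% in MEF-1 lines and 46.2 to 69.7% in MEF-2 lines. About 11 kb before the start, 9 members had 91.2 to 97.9% and 64.4 to 82.4%. The order was reversed in 2 other stretches. The 2 members 1693 and 1564 bases before the start had means of 33.3, 47.2 and 55.1% (lowest, median and highest line) in MEF-1 and 60.5, 62.8 and 81.9% in MEF-2. At 5.0 to 5.5 kb after the start, 8 members had 37.8, 47.2 and 53% in MEF-1 and 69.6, 71.1 and 88.8% in MEF-2. Over all 23 members further than 1 kb into the gene the family means were 72.0 and 73.2%, while over the 33 members further than 1 kb before it they were 87.4% ± 2.61 and 77.7% ± 3.25 (SD).

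Within the gene the direction changed along the sequence. Its 4 members at 1340 to 2048 bases after the start had every MEF-1 line above every MEF-2 line, and the first 3 had means of 91.7, 97.4 and 98.4% (lowest, median and highest line) in MEF-1 and 36.1, 50.3 and 73.9% in MEF-2. Further in, single CpGs differed in both directions. The exonic member 5017 bases after the start was at 0, 5.00 and 15.8% in MEF-1 lines and at 63.3, 100 and 100% in MEF-2 lines (adjusted p = 0.000171, quasi-binomial model). The intronic member at 5682 bases was at 0, 7.14 and 38.5% against 63.2, 93.6 and 97.4% (adjusted p = 0.000101, quasi-binomial model). The intronic member at 10149 bases went the other way, at 6.25, 90 and 100% in MEF-1 and 0, 3.12 and 45.0% in MEF-2 lines (adjusted p = 0.0168, quasi-binomial model). This last CpG thus had both extremes among MEF-1 lines that each had 1 copy.

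At Dlk1 the half-methylated tile was lower in MEF-1, opposite in direction to Meg3 on the same chromosome. Its 11 CpGs lay 163 to 286 bases after the start, in the first exon and its 5′ UTR, ahead of the coding sequence of transcript Dlk1-201. MEF-1 clonal lines 1 to 7 had mean levels of 20, 11.5, 16.4, 13.3, 30.5, 14.4 and 15.3%, and MEF-2 clonal lines 1 to 7 had 46.9, 52.4, 48.1, 41.2, 57.5, 42.0 and 38.5%. Again the families did not overlap, and line 5 was highest in both, although equal numbers mark no shared origin. The means were 17.3% ± 6.39 and 46.7% ± 6.71 (SD, n = 7 each), a difference of -29.3 points (exact permutation test, p = 0.000583, adjusted p = 0.00146). Over all 24 members it was -10.7 points (55.5 against 66.2%, exact permutation p = 0.00117).

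The Dlk1 tile was less uniform than the Meg3 promoter. Extreme calls made up 66.2% ± 15.5 of its CpGs in MEF-1 lines and 31.2% ± 13.7 in MEF-2 lines (SD, n = 7 each), a difference of 35.1 points (exact permutation test, p = 0.00291, adjusted p = 0.00546). Of the 77 values in MEF-1 lines, 47 were at 10% or below and 4 at 90% or above, against 13 and 11 of 77 in MEF-2 lines. Only 1 of the 11 CpGs was at 10% or below in all 7 MEF-1 lines. Over all 24 members, without the choice of the tile, extreme calls averaged 79.2% in MEF-1 lines and 45.8% in MEF-2 lines.

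The Dlk1 members next to the start differed from each other within a few bases. The member closest to the start, at 163 bases, was at 50.0, 96.2 and 100% in MEF-1 and 44.2, 50.9 and 96.6% in MEF-2 lines, so it was higher in MEF-1 (adjusted p = 0.0409, quasi-binomial model). At 176 bases the levels were 0, 13.8 and 78.6% against 92.5, 96.4 and 100% (adjusted p = 3.40e-05, quasi-binomial model), the 78.6% belonging to line 5. At 284 bases they were 0, 4.76 and 14.8% against 43.9, 52.0 and 73.9% (adjusted p = 7.87e-05, quasi-binomial model). Fully methylated and half-methylated CpGs of MEF-2 thus both lay among those that were low in MEF-1.

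The Dlk1 tile was also lower in MEF-1 clonal lines than in their own parental library, in which 39.1% of 258 pooled reads were methylated (95% Wilson interval 33.4 to 45.2%). In the MEF-2 parental library the value was 42.2% of 868 reads (38.9 to 45.5%). As means over CpGs, the parental libraries were at 38.0% (MEF-1) and 40.6% (MEF-2). By that measure the mean shift of clonal lines from the parental library was -20.7 points for MEF-1 and 6.11 points for MEF-2, a difference of -26.8 points in the tile. Over all 24 members the shifts differed by -12.9 points (exact permutation test, p = 0.000583). Each parental library is a single measurement, so its own error is not part of this test.

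Upstream of Dlk1 the members closer to the gene had the higher mean in MEF-1. Of these 6, the quasi-binomial model called 3 higher in MEF-1 and 0 higher in MEF-2, against 11.9 and 8.91% of all CpGs. The 6 members of the upstream stretch printed above had means of 95.9, 98.7 and 99.5% (lowest, median and highest line) in MEF-1 and 63.3, 79.0 and 89.4% in MEF-2 lines. The member 14744 bases before the start was at 91.7, 100 and 100% against 32.4, 46.3 and 67.7% (adjusted p = 5.32e-05, quasi-binomial model). The member 14605 bases before it was at 93.0, 97.8 and 100% against 40.3, 55.2 and 74.3% (adjusted p = 2.29e-05, quasi-binomial model). The 4 members further away had means of 78.9% ± 8.01 and 83.5% ± 6.65 (SD), a difference of -4.58 points that did not pass the exact permutation test (p = 0.272). Over all 10 members further than 1 kb before Dlk1 the means were 90.6% ± 2.84 and 79.6% ± 6.34 (SD).

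Further into Dlk1, at 1598 bases from its start, a member chosen after its values were seen was at 6.67, 100, 100, 11.8, 6.67, 100 and 100% in MEF-1 lines 1 to 7. Lines 1, 4 and 5 were the low ones, and these are the lines that also shared the low coverage of chromosome 18. In MEF-2 lines the same CpG was at 63.9 to 100%.

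**Figure D3:**
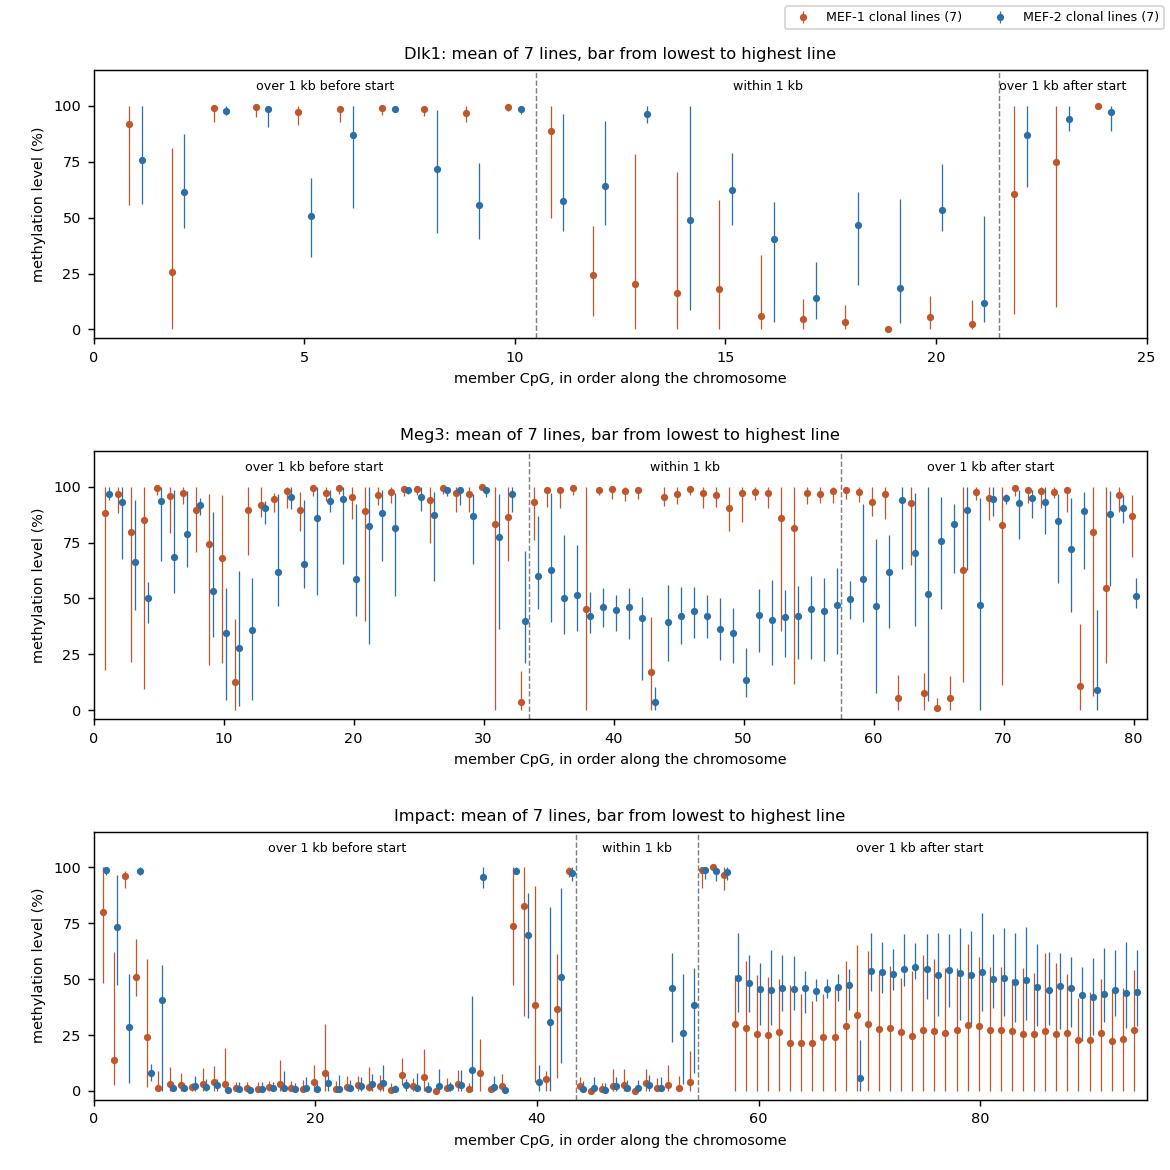
Methylation level (%) of every member in order along Dlk1, Meg3 and Impact, with points at the mean of 7 clonal lines and bars from the lowest to the highest line; dashed lines separate members more than 1 kb before, within 1 kb of, and more than 1 kb after the annotated gene start. Around the Meg3 start most MEF-1 points lie near 100% and most MEF-2 points near the middle, and inside Impact the MEF-1 bars reach from near 0 to the MEF-2 range.

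At Impact the lines with 1 copy of chromosome 18 were low and those with 2 copies were in the middle. MEF-1 lines 1, 4 and 5 had mean levels of 11.1, 10.2 and 10.3% over the 40 CpGs of its tiles, MEF-1 lines 2, 3, 6 and 7 had 50.9, 46.9, 42.7 and 46.5%, and MEF-2 lines ranged from 43.4 to 59.0%. The 1-copy lines lay apart from all 11 others. Within MEF-1 the means were 10.5% ± 0.517 (SD, n = 3) and 46.8% ± 3.34 (SD, n = 4), a difference of -36.2 points with an exact permutation p = 0.0571, which is the smallest that 3 against 4 lines allow (adjusted p = 0.0779), so this design could not reach 0.05. Over all 94 members the means were 11.9 and 27.6%, a difference of -15.7 points (exact permutation p = 0.0571).

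Extreme calls at Impact made up 91.7% ± 1.44 of CpGs in the 1-copy lines and 8.12% ± 3.15 in the 2-copy lines of MEF-1 (SD, n = 3 and n = 4), a difference of 83.5 points (exact permutation test, p = 0.0571, adjusted p = 0.0779), and over all 94 members the difference was 38.5 points (exact permutation p = 0.0571). Lines of MEF-1 with 2 copies had 46.8% and MEF-2 lines 50.5% ± 6.05 (SD, n = 7), a difference of -3.70 points that did not pass the exact permutation test (p = 0.279, adjusted p = 0.299), whereas over all 94 members the difference was -4.43 points (exact permutation p = 0.00606). The whole MEF-1 family against MEF-2 differed by -19.2 points (exact permutation test, p = 0.0268, adjusted p = 0.0447), and by -11.2 points over all 94 members (exact permutation p = 0.000583). The difference in the tiles rested on lines 1, 4 and 5. Leaving out any one of these, or MEF-2 line 2 or 4, gave -18.3 to -15.7 points with exact permutation p-values of 0.0524 to 0.0536. Over all 7 lines the shift from the parental library averaged -1.61 points for MEF-1 and 1.06 points for MEF-2, a difference of -2.68 points in the tiles, which was 12.8 points without lines 1, 4 and 5. Over all 94 members the shifts differed by -0.477 points (exact permutation test, p = 0.876).

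**Figure D4:**
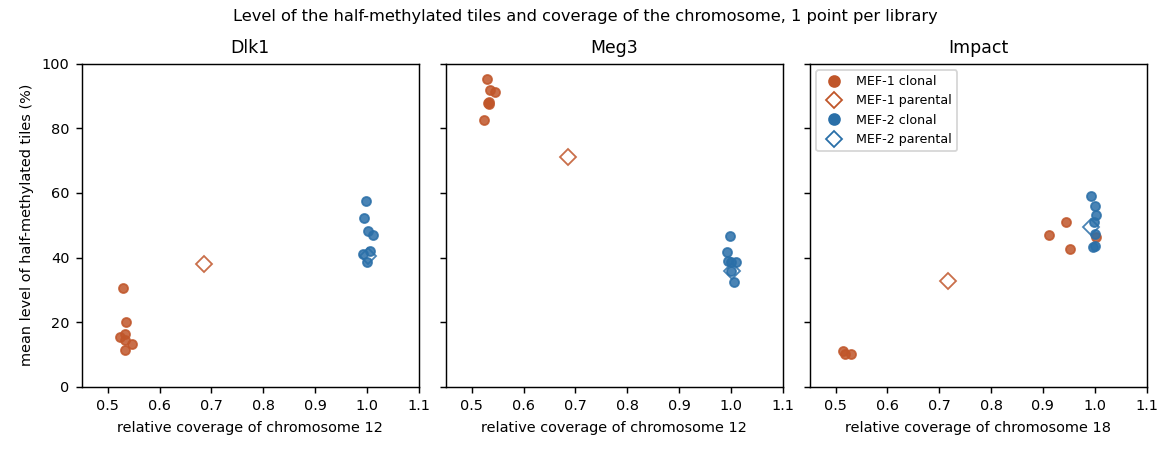
Mean level of the half-methylated tiles (%) against coverage of the chromosome relative to the other autosomes and to the median MEF-2 clonal line, with 1 point per library, filled for clonal lines and open for parental libraries. On chromosome 12 all MEF-1 clonal lines lay at 0.524 to 0.546 and away from MEF-2, whereas on chromosome 18 lines of both families lay at 0.912 and above with levels of 42.7 to 59.0%, and only 3 MEF-1 lines lay near 0.5.

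The tiles of Impact did not all follow copy number. In the tile that begins 17 kb after the annotated start, 24 intronic CpGs, the 1-copy lines had means of 1.55, 1.72 and 1.79%, MEF-1 lines with 2 copies had 37.3 to 50.2% and MEF-2 lines 38.6 to 63.3%. Of the 72 values in 1-copy lines 67 were at 10% or below and the highest was 14.8%, while 0 of 96 values in 2-copy MEF-1 lines were at 10% or below. In the tile at 16 kb, with 11 CpGs at the start of Impact-201, the 1-copy lines had 9.40, 10.2 and 12.5%, and 28 of their 33 values were at 10% or below. Of its 11 CpGs 9 were at 10% or below in all of lines 1, 4 and 5, and 1, at 16048 bases, was at 90% or above in every clonal line.

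The third tile of Impact, 16 kb before the annotated start and inside an intron of the neighbouring gene Osbpl1a, did not follow copy number. Its 5 CpGs had means of 51.4 to 54.3% in 1-copy lines, 46.5 to 61.5% in 2-copy MEF-1 lines and 50.3 to 71.4% in MEF-2 lines. In 1-copy lines and in MEF-2 lines these means mostly averaged extremes, since 6 and 6 of 15 and 7 and 17 of 35 values were at 10% or below and at 90% or above. In 2-copy MEF-1 lines these were 4 and 5 of 20, so most values there lay between. Chosen after its values were seen, the CpG 15684 bases before the start was at 68.2, 51.5 and 51.4% in lines 1, 4 and 5, at 42.6 to 50.9% in the other MEF-1 lines, and at 96.8 to 100% in MEF-2 lines. At this 1 CpG a level near the middle thus also occurred in lines with 1 copy. Why it did was not tested.

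The neighbouring named members of Impact show how CpGs of this tile differed. The CpG 15761 bases before the start was at 90.6, 97.5 and 98.4% in MEF-1 and at 3.41, 34.6 and 52.2% in MEF-2 lines (adjusted p = 0.000228, quasi-binomial model). The CpG 15787 bases before it was at 2.70, 5.00 and 62.0% against 47.2, 83.1 and 96.7% (adjusted p = 0.0185, quasi-binomial model). At 7862 bases before the start, a CpG between genes was at 0, 7.32 and 23.3% against 90.9, 95.2 and 100% (adjusted p = 6.50e-07, quasi-binomial model). At the first and the last of these CpGs the families did not overlap, although MEF-1 lines with 1 and with 2 copies were pooled.

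Inside Impact the named member at 17045 bases was at 0, 48.8 and 65.4% in MEF-1 and 0, 3.77 and 22.6% in MEF-2 lines (adjusted p = 0.00575, quasi-binomial model), so this 1 CpG of the intronic tile was low in MEF-2. At the annotated start of Impact itself, 6 bases after it, the member was near 0 in both families, with an adjusted p of 0.346 (quasi-binomial model). The 11 members within 1 kb of that start had means of 0 to 4.39% in MEF-1 lines and 5.79, 11.9 and 14.6% (lowest, median and highest) in MEF-2 lines. The MEF-2 means came mostly from the members at 342, 344 and 349 bases. Their medians were 51.5, 35.0 and 41.0% in MEF-2 lines and 0% each in MEF-1 lines. The other members there had medians of 0 to 3.125% in both families.

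The MEF-1 parental library was below the MEF-2 one at Impact, with 33.0% of 1616 pooled reads methylated (95% Wilson interval 30.8 to 35.4%) against 49.5% of 2304 (47.4 to 51.5%). It lay between the 1-copy and the 2-copy clonal lines, as did its coverage of chromosome 18. From the methylation level alone, shares of cells with different copy numbers and intermediate states of single cells cannot be told apart in a mixed culture. How much each adds to the level was not tested.

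Between families, 277421 of the 1334763 CpGs (20.8%) passed an adjusted p of 0.05 in the quasi-binomial model, 11.9% of all CpGs as higher in MEF-1 and 8.91% as higher in MEF-2. At Meg3 35 of 80 members were called higher in MEF-1 and 5 higher in MEF-2, so its share on the MEF-1 side was above the background. At Dlk1 the counts were 4 and 6 of 24, the former falling to 2 when any of 10 of the 14 lines was left out, and at Impact 2 and 9 of 94, the Impact counts lying near or under the background of 11.9 and 8.91%. Between 1-copy and 2-copy lines of MEF-1 the model called 0 of all CpGs (0%), Impact included. An unadjusted p below 0.05 in this model was found at 42 of 94 Impact members and at 69729 of all 1334763 CpGs. With the dispersion as estimated rather than held at 1 or above, 2 Impact members were called higher and 9 lower in 1-copy lines, against 0.281 and 0.184% of all CpGs.

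Members whose lines did not overlap between groups were also counted. The tiles were chosen by level, unlike the CpGs they are set against. At the Meg3 tiles 16 of 20 CpGs had every MEF-1 line above every MEF-2 line. Over all 80 Meg3 members this held for 24 (30%), while 5 (6.25%) had every MEF-1 line below. The shares above were 7.11% on chromosome 12 and 5.35% of all CpGs, and those below were 6.00 and 4.50%. At the Dlk1 tile 5 of 11 had every MEF-1 line below every MEF-2 line. Over all 24 Dlk1 members 5 (20.8%) lay below and 2 (8.33%) above, against the same background shares. At Impact 1 of 94 members had every MEF-1 line above and 4 of 94 every MEF-1 line below every MEF-2 line. That is not more than the 5.35 and 4.50% of all CpGs. Within MEF-1, at the Impact tiles, 35 of 40 CpGs had all of lines 1, 4 and 5 below all of lines 2, 3, 6 and 7. Another 2 of 40 lay the other way. Over all 94 Impact members these counts were 39 (41.5%) and 5 (5.32%). The shares below were 2.51% of all CpGs and 8.27% of those on chromosome 18, and those the other way 3.94 and 9.13%.

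The imprinted members were set beside the rest of their chromosomes among CpGs at 30 to 70% in the MEF-2 parental library. On chromosome 12, 43 such members were between 10 and 90% in 19.9% ± 8.26 of cases per MEF-1 line and in 92.4% ± 4.97 per MEF-2 line (SD, n = 7 each), against 33.2% ± 2.12 and 82.4% ± 3.04 of the other 6946 such CpGs of the chromosome. In MEF-1 lines 70.8% of the 43 members were at 90% or above and 9.30% at 10% or below, where the rest of the chromosome had 41.7 and 25.2%. On chromosome 18, 92.7% of 41 such members were at 10% or below in each 1-copy line and 0% at 90% or above, while the other 5338 such CpGs of the chromosome were split, with 25.1 and 43.3%. The choice by a MEF-2 library favours intermediate levels in MEF-2 lines among members and the rest alike, and no test was made of these differences.

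Opposite extremes in different MEF-1 lines were counted for each locus. CpGs with at least 1 MEF-1 line at 10% or below and at least 1 at 90% or above were 2 of 24 at Dlk1, 4 of 80 at Meg3 and 1 of 94 at Impact (8.33, 5.00 and 1.06%), against 5.94% of CpGs on chromosome 12, 2.69% on chromosome 18 and 0.688% of all CpGs in the same lines. The shares at Dlk1 and Meg3 were thus near that of their chromosome. At Impact it was the CpG 6997 bases before the start, outside the tiles, with 79.2, 5.56, 9.26, 91.7, 71.4, 3.90 and 7.81% in lines 1 to 7, the 1-copy lines again being the ones that stood apart.

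MEF-1 lines 1, 4 and 5 were also closer to each other elsewhere, so they are not counted as 3 independent losses here. Whether they share an origin was not tested. Over members on chromosome 12, which all MEF-1 lines had in 1 copy, the mean absolute difference between lines was 6.68 points for the 3 pairs among them, 10.5 points for the 6 pairs among lines 2, 3, 6 and 7, and 11.2 points for the 12 mixed pairs. Over CpGs of chromosomes other than 12 and 18 the values were 6.63, 7.86 and 8.24 points. The copy number of chromosome 18 and the relation of the lines cannot be told apart here.

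Imprinted loci on chromosomes whose coverage stayed near that of other autosomes served as comparison. Tile means of Peg10 were 40.9 to 58.3% in MEF-1 and 41.4 to 58.6% in MEF-2 lines, those of Mest 45.6 to 52.3% and 44.7 to 50.7%, and those of Nap1l5 42.2 to 79.0% and 44.4 to 80.9%, with overlap at each. Rasgrf1 is the one among them with methylation on the paternal copy. Over 8 CpGs it had 63.6 to 89.0% in MEF-1 and 30.7 to 60.7% in MEF-2 lines, without overlap. Of these CpGs 25 to 75% were extreme per MEF-1 line and 25 to 62.5% per MEF-2 line. The mean thus does not stand for half-methylated single CpGs, and whether these CpGs belong to the parental imprint was not tested. The share of extreme calls beyond the mean of these comparison loci differed between families by 80.9 points at Meg3 (exact permutation test, p = 0.000583, adjusted p = 0.00146), by 34.6 points at Dlk1 (exact permutation test, p = 0.00233, adjusted p = 0.00500) and by 30.2 points at Impact (exact permutation test, p = 0.170, adjusted p = 0.212). Over all members these differences were 40.04, 30.3 and 12.8 points.

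Other genes of the domain around Dlk1 and Meg3 were described by the same rule for members. Members higher in MEF-1 and higher in MEF-2 were 1 and 2 of 9 at Begain, 10 and 4 of 58 at Wdr25, 2 and 2 of 19 at Rtl1, 2 and 2 of 22 at the noncoding RNA Rian, 1 and 4 of 32 at the microRNA host Mirg, and 0 of 3 at Dio3, a deiodinase of thyroid hormone, against 13.8 and 10.6% of CpGs on chromosome 12 and 11.9 and 8.91% of all CpGs. With so few members most of these counts lay near the background. Among these genes, Rtl1 and Rian share 1 half-methylated tile of 5 CpGs in a Rian intron, at 0.952, 7.52 and 20% in MEF-1 lines and 32.9, 37.3 and 42.3% in MEF-2 lines. That tile was low in MEF-1, as at Dlk1 and unlike the Meg3 promoter. The half-methylated tile of Mirg, with 7 CpGs, was at 58.9, 67.0 and 71.2% in MEF-1 and 62.0, 71.7 and 82.9% in MEF-2 lines, so the families overlapped. In this tile 65.3% of CpGs were extreme per MEF-1 line on average, against 46.9% per MEF-2 line, so its mean does not stand for half-methylated single CpGs. Next to Impact, Osbpl1a had 7 and 28 of 185 and Cabyr 4 and 3 of 36, against 11.3 and 9.51% of CpGs on chromosome 18, and the Osbpl1a window overlaps that of Impact.

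Between families the embryo, the sex, the culture history and the copy number of chromosome 12 cannot be told apart, since all MEF-1 clonal lines had 1 copy and all MEF-2 lines 2. Which parental copy remained was not measured, and RNA was not used here, so neither the expression of these genes nor the fibroblast identity of the lines was checked.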

How the data were processed

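Deposited values were counts of methylated and of unmethylated reads per CpG, 1 file for each of 2 parental libraries and 14 clonal lines. Per the labels, the authors trimmed reads with Trim Galore 0.6.0, aligned them and called methylation with Bismark against mm10, and used R 3.6.1. The study's methods also exclude reads of low mapping quality and biased read ends. They give different Bismark versions in different places, so none is printed. Removal of duplicate reads is not given in the sources used here, and a read is not an independent molecule, so intervals cover counting error only. A table of the whole series holds no chromosome 12 or 18 and was not used here.

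CpGs were kept where each of the 16 libraries had at least 10 reads. The level was 100 times methylated reads over all reads. Gene starts, ends, exons and UTRs were taken from GENCODE M21 (mm10), and sequences from RefSeq (GRCm38.p6). For relative coverage, a chromosome's share of all calls in a library was divided by its median share in MEF-2 clonal lines. That ratio was then divided by the median ratio of the library's autosomes. Clonal lines below 0.75 were called 1-copy lines, a rule that uses no methylation level. Parental libraries, being mixed cultures, were given no copy number.

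Every CpG was fitted with a quasi-binomial logistic model (F test, dispersion not below 1), with Benjamini-Hochberg adjustment over all 1334763 CpGs. The model was tested on simulated data with counting error only and no further spread between lines. That test therefore does not cover the spread of the real lines. Tiles were compared by two-sided exact permutation tests over lines, adjusted over 15 tests. The 3 of these on the shift from the parental library in tiles chosen by a parental library are given without a p-value. Python 3.11.15, numpy 2.4.6, scipy 1.17.1, pandas 2.3.3 and matplotlib 3.10.9 were used. Single CpGs named were the member closest to each gene start and, among those called, the 2 with the largest difference in each direction, and others are said to be chosen after their values were seen. Members and gene lists were chosen with earlier results of these data known.

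Alternatives were a minimum of 5 or 20 reads, thinning to 10 reads, other tile limits and lengths, pooled reads, all members, other limits for extreme calls, the dispersion as estimated, a stricter threshold, leaving out each line or the 1-copy lines, comparison loci without Rasgrf1, and the line number as a block. Impact without its upstream tile and tiles of at least 3 members were added after seeing the data.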

Additional observations from a re-analysis of the deposited data

Results flagged for a closer look

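In the 500 bases after the start of Meg3, MEF-1 line 7 had a mean level of 69.4% over 5 CpGs, below the other 6 MEF-1 lines at 90.5 to 100%. Its gap to the nearest line was 0.689 of the range of the group. The low values were those of the neighbouring CpGs 296 and 298 bases after the start, at 35.3 and 11.8%. This was the 1 flag among 40 groups examined in this way, and the limit used is set so that chance flags about 1 in 20.

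The shift of clonal lines from their own parental library differed between families by -26.8 points in the Dlk1 tile and by 14.8 points in the Meg3 tiles. These tiles were chosen by the MEF-2 parental library, which is also the MEF-2 baseline here. Over all members, without that choice, the differences were -12.9 points at Dlk1 (exact permutation test, p = 0.000583) and 4.62 points at Meg3 (exact permutation test, p = 0.0122). In the tiles all 7 MEF-1 lines were below their parental library at Dlk1 and above it at Meg3. Each parental library was 1 measurement.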

How the results depend on the processing

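At Dlk1 and Meg3 the differences in level and in extreme calls kept their direction and passed the exact permutation test under every alternative that gave a value, and the shift from the parental library kept its direction; with 20 reads their tiles gave none. Their size depended on the choice of tiles. Over all members the level differed by -10.7 points at Dlk1 and 18.2 at Meg3, the shift from the parental library by -12.9 and 4.62, and extreme calls by 33.3 and 43.0 points. With tiles at 20 to 80% the Meg3 values were 25.4 in level and 5.34 in the shift, and with 5 reads the Dlk1 values were -16.8 in the shift and 22.3 in extreme calls. At Impact, 1-copy against 2-copy lines of MEF-1 differed over all members by -15.7 points in level and 38.5 in extreme calls. Leaving out 1 line gave -31.5 to -27.5 points at Dlk1 and 49.1 to 51.5 points at Meg3. At Impact the MEF-1 lines with 1 copy decided the comparison of families. Without them the difference in level was -3.70 points (exact permutation p = 0.279), that in extreme calls -5.09 points (exact p = 0.0303), that in the shift from the parental library 12.8 points and that beyond the comparison loci -3.30 points (exact p = 0.242). Leaving out 1 line gave -22.5 to -15.7 points in level, with exact p-values from 0.0128 to 0.0536, passing 0.05 except without MEF-1 line 1, 4 or 5 or MEF-2 line 2 or 4, and -5.96 to 0.828 points in the shift from the parental library, which was 0.674, 0.828 and 0.819 without MEF-1 line 1, 4 or 5. MEF-1 lines with 2 copies against MEF-2 lines differed by -4.43 points over all Impact members (exact p = 0.00606). Counts of called members moved with the reads required, since fewer or more CpGs were then tested. With 5 reads, 22 of 90 Dlk1 members were called higher in MEF-2, and 68 of 158 Meg3 members were higher in MEF-1 and 12 in MEF-2, against 10.7% of all CpGs called higher in MEF-1 and 8.29% in MEF-2. With 20 reads the counts were 2 and 1 of 7 at Dlk1, 6 and 0 of 19 at Meg3, and 1 and 3 of 23 at Impact, in the order higher in MEF-1 and higher in MEF-2, against 13.7 and 9.99%. Dlk1 members higher in MEF-1 were 2 at an adjusted p under 0.01 and 2 without the 1-copy lines, and Impact members higher in MEF-1 were 1 after thinning to 10 reads. Leaving out 1 line gave 2 to 4 Dlk1 members higher in MEF-1, the value being 2 without MEF-1 line 1, 2, 3, 4, 6 or 7 or MEF-2 line 1, 2, 3 or 4. With the dispersion as estimated, 2 Impact members were called higher and 9 lower in 1-copy than in 2-copy lines of MEF-1, against 0.281 and 0.184% of all CpGs. The cause of these changes was not tested beyond the number of CpGs and lines. Line numbers pair nothing, since correlations of same-numbered lines over all CpGs lay between -0.00393 and 0.00355 and 1 of 14 lines correlated best with its own number. With the replicate block the differences were -29.3 points at Dlk1, 50.2 at Meg3 and -19.2 at Impact (exact sign-flip p = 0.0156 for each). This p-value is the smallest that 7 pairs allow, and the pairs rest on these arbitrary numbers. The counts with the block were 3 and 7 at Dlk1, 34 and 6 at Meg3, and 2 and 8 at Impact. No block could be made for lines with 1 against 2 copies, which share no numbers.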
